A study of Mus musculus with 12 samples.

Results

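A set of 10 genes whose products load, store, release or trigger the release of calcium at the sarcoplasmic reticulum was followed in mouse satellite cells: *Sln*, *Ryr1*, *Atp2a1*, *Atp2a2*, *Casq1*, *Casq2*, *Trdn*, *Jph1*, *Jph2* and *Cacna1s*. They were chosen by name, 10 of the 55401 genes in the table of raw counts, and all 10 had enough counts to be among the 25771 genes tested. Satellite cells are the stem cells of skeletal muscle, and the study asked what loss of the chemokine receptor CXCR4 does to their transcripts at rest and on activation. Pax7-ZsGreen+ cells of adult mice were sorted from hind limb muscle and their RNA was sequenced. All mice were homozygous for a floxed *Cxcr4* allele (CXCR4 FL/FL), carried the Pax7-ZsGreen reporter and were given tamoxifen at 80 mg/kg on 5 consecutive days. The *Cxcr4* KO mice also carried Pax7-creERT2, which deletes the floxed allele in cells that express *Pax7*, and the *Cxcr4* WT mice lacked cre. There were 4 WT and 4 KO libraries of freshly sorted cells, called quiescent, and 2 WT and 2 KO libraries of cells cultured overnight, called activated. The labels give no age, and do not say whether libraries came from separate mice, so p-values measure only the spread between these libraries.

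In a muscle fibre the sarcoplasmic reticulum is the calcium store that sets off contraction. The voltage sensor in the T-tubule membrane, the dihydropyridine receptor, opens the ryanodine receptor in the facing membrane of the store, and calcium flows into the cytoplasm. Calsequestrin binds calcium inside the store, triadin ties it to the release channel, and junctophilins hold both membranes together. The SERCA pumps then return the calcium, and sarcolipin, a very small membrane protein, slows them. *Atp2a1* encodes the SERCA1 pump typical of fast fibres, and *Atp2a2* the SERCA2 pump of slow and cardiac muscle, of which a widely expressed form also serves the endoplasmic reticulum of other cells. *Casq1* and *Jph1* are the paralogs typical of skeletal muscle, and *Casq2* and *Jph2* those typical of the heart, although skeletal muscle also uses the latter.

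Total counts lay between 12775593 and 23717013 in the quiescent libraries and between 3172164 and 5427280 in the activated ones. The ribosomal RNA-like gene CT010467.1 received 0.295% to 0.807% of the counts of quiescent and 11.5% to 40.3% of those of activated libraries. *Cxcr4* was at 61.2, 59.1, 89.6 and 112 CPM (counts relative to library size, scaled by TMM) in the quiescent WT and at 17.6, 21.2, 12.5 and 17.1 CPM in the quiescent KO libraries, and fell (log2 fold change -2.24; SE, the standard error, 0.31; adjusted p = 0.00477, quasi-likelihood F test of edgeR). It was at 33.3 and 14.5 CPM in the activated WT and at 5.39 and 13.7 CPM in the activated KO libraries, where the log2 fold change of -1.35 did not pass the test (adjusted p = 0.381 in edgeR) and lay between -2.24 without KO replicate 2 and -0.69 without WT replicate 1. The satellite cell label was checked on *Pax7*, the transcription factor that marks these cells. It was at 482, 337, 444 and 303 CPM in quiescent WT and at 181, 237, 290 and 279 CPM in quiescent KO libraries. All KO libraries thus lay below all WT libraries, and 1.7% of all genes tested did not overlap in this comparison. None of the 8 satellite cell genes, *Pax7* among them, was called between the quiescent genotypes. In activated libraries *Pax7* had between 71.2 and 129 CPM. State and sex of the mice cannot be told apart, because *Xist* had 451 to 817 CPM in the activated and 1.204 to 7.166 CPM in the quiescent libraries, while the Y-linked *Uty* and *Eif2s3y* had 0 counts in every activated library and at least 153 and 496 counts in every quiescent one.

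Sequences are printed for the members on which the results turn. These are the coding sequence of *Sln*, whose level in activated cells differed most between genotypes, and the promoters of *Atp2a1*, *Casq1* and *Casq2*. *Atp2a1* and *Casq1* were many-fold higher in activated than in quiescent libraries, and *Casq2* was not in WT cells. The *Sln* reading frame lies in a single exon at chr9:53853473-53853568 on the + strand of GRCm38, has 96 bases and encodes 31 amino acids before the stop codon. The promoters are RefSeq windows of 300 bases on GRCm38.p6, with 250 bases before and 50 after the transcription start, at chr7:126463024-126463323 on the - strand for *Atp2a1*, at chr1:172219846-172220145 on the - strand for *Casq1* and at chr3:102086165-102086464 on the + strand for *Casq2*. Capitals mark E-boxes, spelled CANNTG, the motif bound by MYOD1 and its relatives, and the match to the MEF2 consensus.
Sln coding sequence: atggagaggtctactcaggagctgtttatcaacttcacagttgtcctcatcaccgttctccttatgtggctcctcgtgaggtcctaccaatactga
Atp2a1 promoter: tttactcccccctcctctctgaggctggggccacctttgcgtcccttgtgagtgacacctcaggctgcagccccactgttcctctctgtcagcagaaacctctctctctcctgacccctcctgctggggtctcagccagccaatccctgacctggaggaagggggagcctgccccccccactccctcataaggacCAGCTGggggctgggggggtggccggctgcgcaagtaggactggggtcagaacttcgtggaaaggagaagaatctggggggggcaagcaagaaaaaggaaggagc
Casq1 promoter: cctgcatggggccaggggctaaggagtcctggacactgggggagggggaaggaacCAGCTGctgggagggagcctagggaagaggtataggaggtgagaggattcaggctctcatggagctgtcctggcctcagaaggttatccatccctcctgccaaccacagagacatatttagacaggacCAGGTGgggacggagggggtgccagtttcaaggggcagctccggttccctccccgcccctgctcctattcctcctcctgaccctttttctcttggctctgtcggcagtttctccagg
Casq2 promoter: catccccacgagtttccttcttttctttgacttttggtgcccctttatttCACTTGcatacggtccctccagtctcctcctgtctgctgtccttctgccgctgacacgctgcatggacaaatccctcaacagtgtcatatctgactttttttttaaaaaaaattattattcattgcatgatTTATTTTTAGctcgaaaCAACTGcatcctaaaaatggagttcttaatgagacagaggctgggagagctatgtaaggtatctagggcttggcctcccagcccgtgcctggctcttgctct
The *Atp2a1* window held 1 E-box, spelled CAGCTG, and the *Casq1* window held 2, of which 1 was CAGCTG. The *Casq2* window held 2 E-boxes, neither of them CAGCTG, and was the only one of the 6 members' windows with a match to MEF2. Each motif reads the same way on both strands, so a single scan covered both. Of 32851 promoters of this length, 72.3% held CANNTG, 16.3% held CAGCTG, which is one spelling of CANNTG, and 3.19% held the MEF2 consensus. Of the 6 member genes with a window, CANNTG was found for 5, CAGCTG for 4 and MEF2 for 1. The windows of *Cacna1s* and *Jph2* each held CAGCTG, and that of *Ryr1* none of the motifs. *Sln*, *Atp2a2*, *Trdn* and *Jph1* had no entry. These matches describe letters in a window.

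Most of these genes were higher in activated than in quiescent libraries. Between *Cxcr4* KO and WT none passed the test in the fit of all libraries. Below, "on activation" names the first comparison, in which sex of the mice and depth differ along with state. In WT cells 7 of the 10 members rose from quiescent to activated libraries and in KO cells 9 of 10, and none fell. The 3 that did not pass in WT were *Atp2a2*, *Casq2* and *Jph1*, of which only *Atp2a2* did not pass in KO. Of all genes tested, 9.65% were called higher and 16.5% lower on activation in WT cells, and 11.1% higher and 18.5% lower in KO cells. A call required an adjusted p below 0.05, a change of more than 1 log2 unit, up or down, and more than 10 normalized counts on average. The median log2 fold change was 2.73 over the members and -0.92 over all genes in WT cells, and 2.63 against -0.96 in KO cells, so a member at 0 stood above the typical gene. These are bulk samples, in which more cells of a type and more RNA per cell cannot be told apart.

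**Figure D1:**
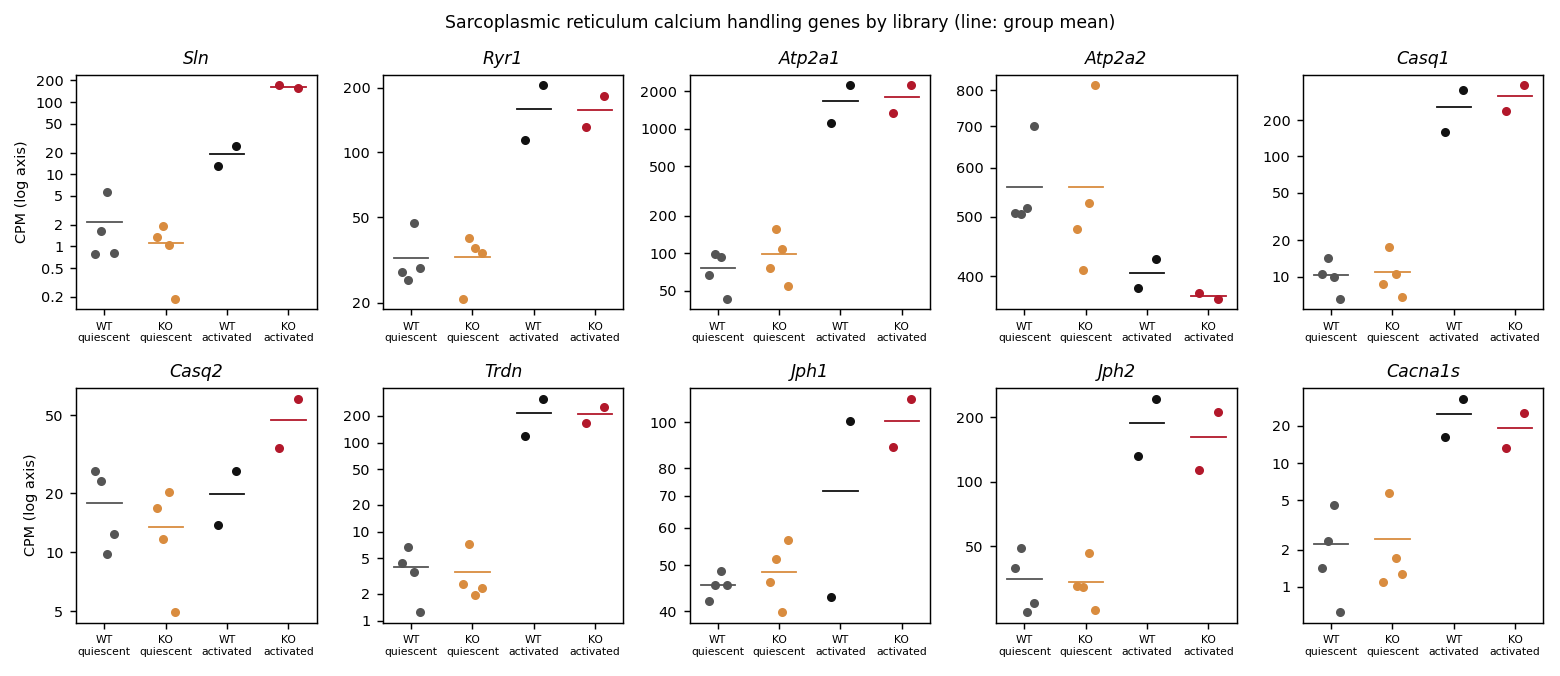
TMM-scaled CPM on a log axis for each of the 10 genes, 1 point per library and a line at the group mean, for 4 WT and 4 KO quiescent and 2 WT and 2 KO activated libraries. *Sln* in the activated KO libraries stood at 172 and 158 CPM against 13.2 and 24.96 CPM in the activated WT libraries, and *Atp2a2* was the only member whose activated libraries all lay below the quiescent ones of the same genotype.

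Among the pumps, *Atp2a1* (ENSMUSG00000030730; GRCm38 chromosome 7, 126445858 to 126463108, - strand) was at 67.1, 99.6, 93.2 and 43.4 CPM in quiescent WT, and at 1116 and 2228 CPM in activated WT libraries. The KO libraries were at 76.1, 157, 109 and 54.6 CPM when quiescent and at 1340 and 2219 CPM when activated. Every activated library lay far above every quiescent one, and the genotypes overlapped within each state. The rise was 22.0-fold in WT (log2 fold change 4.46, SE 0.40) and 17.9-fold in KO (4.17, 0.40), at adjusted p-values of 1.41e-07 and 2.34e-07 in edgeR. *Atp2a2* (ENSMUSG00000029467; chromosome 5, 122453513 to 122502225, - strand) went the other way in level. It was at 507, 505, 517 and 700 CPM in quiescent WT, 477, 410, 526 and 816 CPM in quiescent KO, 383 and 426 CPM in activated WT and 376 and 368 CPM in activated KO libraries. In each genotype the activated libraries lay below the quiescent ones, yet the log2 fold changes of -0.46 (SE 0.28) in WT and -0.58 (0.28) in KO did not pass the test (adjusted p = 0.211 and 0.117 in edgeR), with 95% intervals of -1.05 to 0.13 and -1.17 to 0.01.

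*Sln* (ENSMUSG00000042045; chromosome 9, 53850164 to 53854560, + strand), the SERCA inhibitor, was close to absent in quiescent cells. The WT libraries held 0.783, 1.63, 5.61 and 0.819 CPM, from 15, 23, 128 and 17 counts, and the KO libraries 1.36, 1.91, 1.04 and 0.189 CPM, from 26, 28, 25 and 4 counts. Activated WT libraries held 13.2 and 24.96 CPM (81 and 57 counts) and activated KO libraries 172 and 158 CPM (670 and 693 counts). It rose 8.24-fold in WT (log2 fold change 3.04, SE 0.62, adjusted p = 0.000844 in edgeR) and 150-fold in KO (7.23, 0.66, adjusted p = 1.42e-07). WT replicate 3 carried most of the quiescent WT counts, and without it the WT rise was 4.15 on the log2 scale.

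The release channel *Ryr1* (ENSMUSG00000030592; chromosome 7, 29003344 to 29125179, - strand) was at 27.8, 25.5, 47.1 and 29.1 CPM in quiescent WT and 20.9, 40.0, 36.0 and 34.1 CPM in quiescent KO libraries. It was at 115 and 205 CPM in activated WT and at 131 and 183 CPM in activated KO libraries, all above the quiescent range. The log2 fold changes were 2.30 in WT and 2.26 in KO (SE 0.31 and 0.30; adjusted p = 1.18e-05 and 1.23e-05 in edgeR). *Cacna1s* (ENSMUSG00000026407; chromosome 1, 136052750 to 136119822, + strand), the pore and voltage sensor of the dihydropyridine receptor, was the lowest member per length. It was at 1.41, 2.34, 4.56 and 0.626 CPM in quiescent WT and 1.10, 5.74, 1.70 and 1.27 CPM in quiescent KO libraries, against 16.2 and 33.3 CPM in activated WT and 13.4 and 25.3 CPM in activated KO libraries. Its log2 fold changes were 3.44 in WT and 3.00 in KO (SE 0.64 each; adjusted p = 0.000404 and 0.00117 in edgeR). One library in each genotype weighed on the quiescent level: without WT replicate 3 the change was 4.09, and without KO replicate 2 it was 3.83.

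The calsequestrins parted in WT cells. *Casq1* (ENSMUSG00000007122; chromosome 1, 172209894 to 172219868, - strand), the calcium buffer of the skeletal store, was at 10.5, 14.3, 9.82 and 6.55 CPM in quiescent WT and 8.61, 17.8, 10.5 and 6.80 CPM in quiescent KO libraries. It was at 159 and 357 CPM in activated WT and 241 and 392 CPM in activated KO libraries, and rose in both (log2 fold changes 4.65 in WT and 4.86 in KO, SE 0.38 each, adjusted p = 5.78e-08 and 3.08e-08 in edgeR). Without activated WT replicate 2 the WT change was 4.01. *Casq2* (ENSMUSG00000027861; chromosome 3, 102086415 to 102146514, + strand), its cardiac paralog, was at 26.0, 23.0, 9.82 and 12.4 CPM in quiescent WT and at 13.7 and 25.8 CPM in activated WT libraries, which overlap. In KO cells it was at 16.9, 11.7, 20.3 and 4.96 CPM when quiescent and at 34.2 and 60.9 CPM when activated, which do not. The log2 fold change was 0.12 in WT (SE 0.49, 95% interval -0.89 to 1.14, adjusted p = 0.856 in edgeR). In KO it was 1.82 (SE 0.45, adjusted p = 0.0041 in edgeR), a call that was lost without activated KO replicate 2 (1.36, adjusted p = 0.0905).

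*Trdn* (ENSMUSG00000019787; chromosome 10, 33080554 to 33476709, + strand), triadin, had the steepest rise in WT cells of the 10. It was at 4.39, 6.67, 3.51 and 1.25 CPM in quiescent WT and 2.56, 7.24, 1.95 and 2.31 CPM in quiescent KO libraries, against 120 and 314 CPM in activated WT and 169 and 253 CPM in activated KO libraries. The rise was 55.3-fold in WT and 61.0-fold in KO (log2 fold changes 5.79 and 5.93, SE 0.53 and 0.54; adjusted p = 1.96e-07 and 1.34e-07 in edgeR). It was 6.41 without activated WT replicate 1, 5.00 without activated WT replicate 2 and 6.55 without quiescent KO replicate 2. The junctophilins rose unequally. *Jph2* (ENSMUSG00000017817; chromosome 2, 163336242 to 163397993, - strand) was at 39.7, 48.9, 24.8 and 27.2 CPM in quiescent WT and 32.6, 32.2, 46.4 and 25.4 CPM in quiescent KO libraries, and at 132 and 244 CPM in activated WT and 113 and 211 CPM in activated KO libraries. Its log2 fold changes were 2.42 and 2.25 (SE 0.33 each; adjusted p = 1.41e-05 and 2.62e-05 in edgeR). *Jph1* (ENSMUSG00000042686; chromosome 1, 16964560 to 17097889, - strand) was the steadiest member at rest, with 42.1, 45.5, 48.7 and 45.5 CPM in quiescent WT and 46.2, 51.5, 39.9 and 56.5 CPM in quiescent KO libraries. It was at 43.0 and 101 CPM in activated WT and at 88.9 and 112 CPM in activated KO libraries, and activated WT replicate 1 lay within the quiescent range. The log2 fold change of 0.65 in WT (SE 0.28, adjusted p = 0.0911 in edgeR) turned to a call of 1.22 without activated WT replicate 1 (adjusted p = 0.00483) and to -0.02 without activated WT replicate 2. The call of 1.05 in KO (SE 0.28, adjusted p = 0.00647 in edgeR) was lost without quiescent KO replicate 3, at 0.98, and without activated KO replicate 2, at 0.89.

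**Figure D2:**
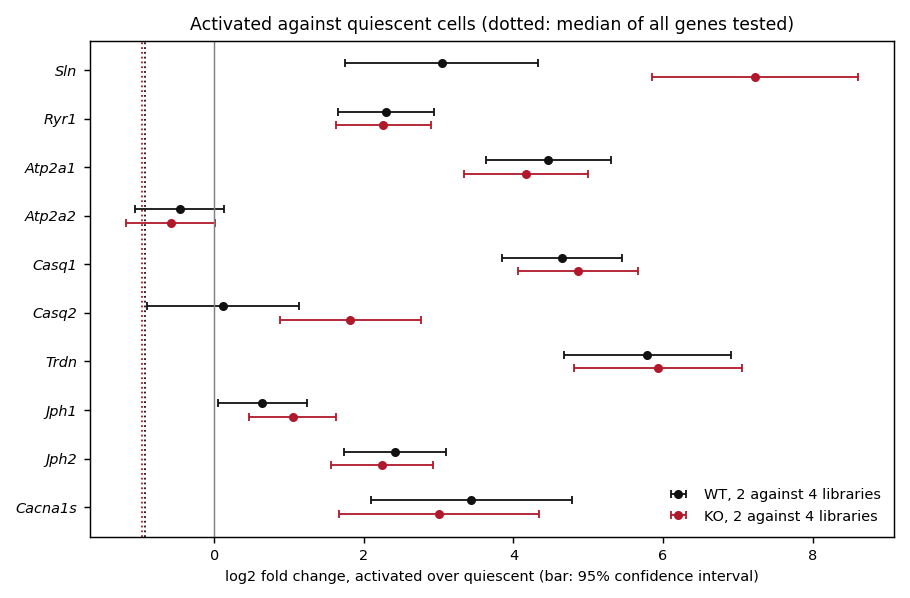
Log2 fold change of activated over quiescent cells for each gene in WT (black) and KO (red), with 95% confidence intervals from edgeR and dotted lines at the medians of all genes tested. *Trdn*, *Casq1* and *Atp2a1* rose by over 4 log2 units in both genotypes, *Atp2a2* lay at -0.46 and -0.58, and the WT and KO intervals of *Sln* did not overlap.

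Because a ratio within a library needs no scaling, the paralogs were also set against each other. *Atp2a1* took 11.7%, 16.5%, 15.3% and 5.83% of the summed *Atp2a1* and *Atp2a2* counts in quiescent WT and 13.8%, 27.7%, 17.1% and 6.28% in quiescent KO libraries. It took 74.4% and 83.9% in activated WT and 78.1% and 85.8% in activated KO libraries, so that the pump with more counts changed from SERCA2 to SERCA1. *Casq1* took between 28.9% and 60.3% of the calsequestrin counts in quiescent libraries, 92.0% and 93.3% in activated WT and 87.6% and 86.6% in activated KO libraries. *Jph1* took between 46.2% and 69.0% of the junctophilin counts in quiescent libraries, 24.6% and 29.2% in activated WT and 44.0% and 34.7% in activated KO libraries. Between the 4 activated and the 8 quiescent libraries the mean log2 ratio differed by 4.83 for *Atp2a1* to *Atp2a2*, by 3.67 for *Casq1* to *Casq2* and by -1.51 for *Jph1* to *Jph2*. In each pair no activated library overlapped the quiescent ones, and the two-sided exact permutation p was 0.00202 for each, the smallest this design can give (adjusted p = 0.00404 over the 6 ratio tests). Between quiescent KO and WT libraries the differences were 0.38, 0.51 and 0.10 in the same order, and the exact permutation p was 0.543, 0.314 and 0.829, where 4 against 4 libraries can reach 0.0286. In activated cells the log2 ratio of *Casq1* to *Casq2* was 3.52 and 3.78 in WT and 2.82 and 2.68 in KO libraries, and that of *Jph1* to *Jph2* was -1.62 and -1.27 in WT and -0.35 and -0.91 in KO libraries. These groups do not overlap, but with 2 libraries against 2 an exact test cannot go below 0.333, and they are given as values.

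**Figure D3:**
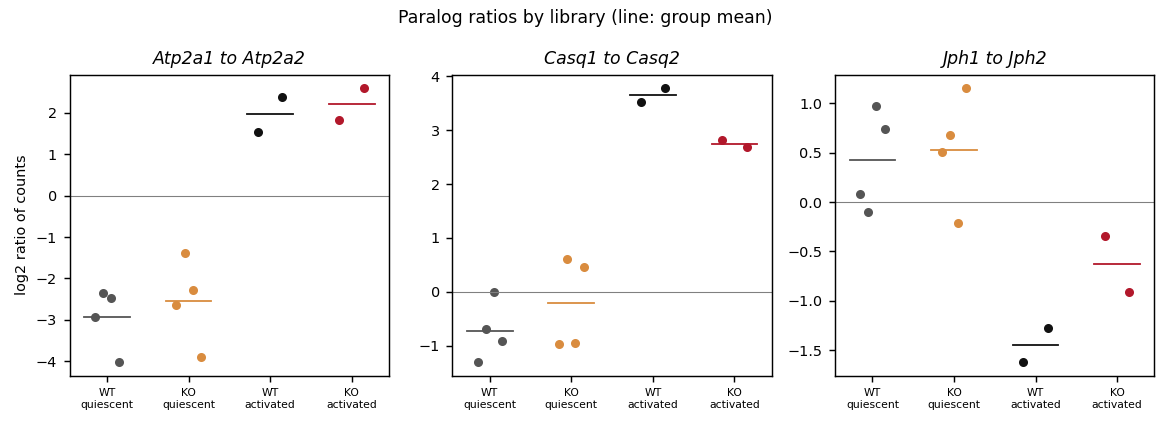
Log2 ratio of counts for 3 pairs of paralogs, 1 point per library and a line at the group mean, with 0.5 added to each count. The activated libraries lay above all quiescent ones for *Atp2a1* to *Atp2a2* and *Casq1* to *Casq2* and below them for *Jph1* to *Jph2*.

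Per length of exon the order of the members also changed. The FPKM scale was computed from the CPM and the exon lengths of GENCODE mouse release 21. On it *Atp2a2* led in quiescent cells at 91.6 ± 15.7 in WT and 91.6 ± 29.4 in KO (SD, n = 4 each), followed by *Atp2a1* at 21.8 ± 7.42 and 28.5 ± 12.8. *Jph1*, *Jph2*, *Casq2* and *Casq1* came next, between 4.92 and 9.71 FPKM in either genotype, and these neighbours overlapped between libraries. *Sln* and *Ryr1* followed at 1.68 ± 1.75 and 1.48 ± 0.454 FPKM in WT, which did not differ beyond their spread, and *Trdn* and *Cacna1s* were lowest at 0.423 ± 0.240 and 0.341 ± 0.260 FPKM. In activated cells *Atp2a1* led at 481 ± 226 in WT and 512 ± 179 in KO (SD, n = 2 each), and *Casq1* came next at 132 ± 72.0 and 162 ± 54.7. *Sln* was the sixth member in activated WT cells at 14.5 ± 6.29 FPKM, and the third in activated KO cells at 125 ± 7.51 FPKM, a value within the spread of *Casq1*. The authors' FPKM, 1 per group of libraries, gave *Sln* 1.632 in quiescent WT, 0.846 in quiescent KO, 14.999 in activated WT and 122.903 in activated KO cells.

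The sorted cells were checked with marker lists. The 14 genes of the mature muscle fibre list summed to 337 to 830 CPM in quiescent WT, 437 to 1074 in quiescent KO, 8560 to 18827 in activated WT and 11039 to 19903 in activated KO libraries. Of the 13 with enough counts, 12 were called higher on activation in WT and 13 in KO, with median log2 fold changes of 4.26 and 4.62. The fibre-defining *Myh1*, *Myh4*, *Ckm* and *Mb* were at 0 in none of the 12 libraries, and their lowest counts were 308, 365, 273 and 104. The 8 satellite cell genes summed to 3635 to 5552 CPM in quiescent and 1067 to 1610 CPM in activated libraries, and 7 of 8 were called lower in WT and 8 of 8 in KO. The 8 genes of myoblasts and early differentiation, by contrast, were called higher in 0 of 8 in WT and in 1 of 8, *Myh8*, in KO cells. Of this list 1 of 8 was called lower in WT and 0 of 8 in KO cells, with median log2 fold changes of -1.59 and -0.18. *Myog*, the transcription factor that opens terminal differentiation, ranged from 4.03 to 68.2 CPM in quiescent and from 5.23 to 30.8 CPM in activated libraries. The lists of smooth muscle and pericyte, endothelial, Schwann and hematopoietic cells had no gene called higher on activation in either genotype, and that of fibroadipogenic progenitors had 1 of 6, *Pdgfra*, in KO. Lower calls were made for 5 of 8 smooth muscle and pericyte, 3 of 6 endothelial, 4 of 6 Schwann cell, 2 of 6 hematopoietic and 2 of 6 fibroadipogenic genes in WT cells, and for 7, 2, 5, 3 and 2 of them in KO cells. Beside these counts, 9.65% of all genes tested were called higher and 16.5% lower in WT cells. In KO cells it was 11.1% and 18.5%, and the medians of all genes were -0.92 in WT and -0.96 in KO. The part of fibre transcripts, of other cell types, of sex, of depth and of CT010467.1 in the rise of the members was not tested.

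**Figure D4:**
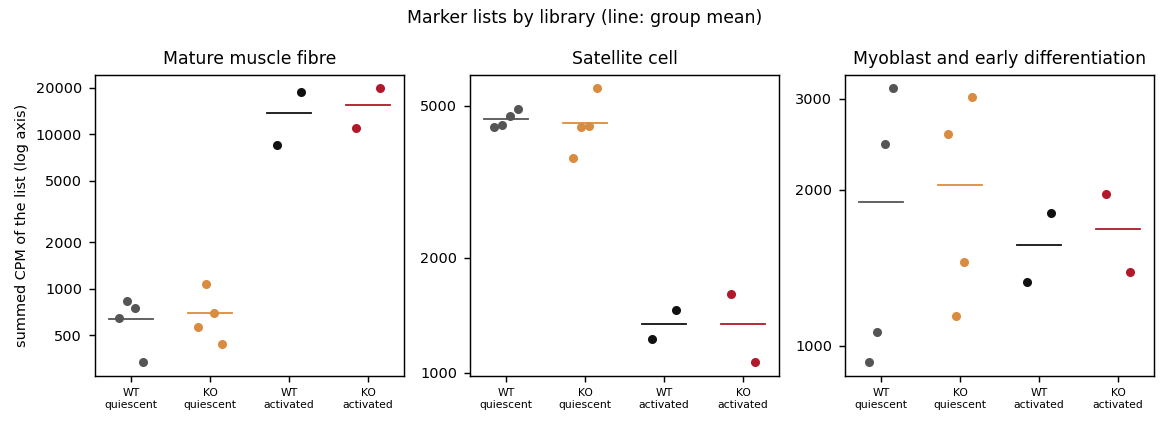
Summed CPM on a log axis of 3 marker lists, 1 point per library and a line at the group mean. The fibre list lay above 8560 CPM in every activated and at or below 1074 CPM in every quiescent library, and the satellite cell list went the other way.

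Between quiescent KO and WT cells none of the 10 members was called by edgeR, and none had an unadjusted p under 0.05. DESeq2 on all libraries also called 0. Of all genes tested, 0.0155% were called in this comparison, and the libraries of the genotypes did not overlap for 1.7%. For every member they overlapped. Leaving *Sln* and *Casq2* aside, the log2 fold changes lay between -0.18 for *Trdn* and 0.39 for *Atp2a1*, with 95% intervals that together spanned -1.11 to 1.25. *Casq2* was at -0.40 (SE 0.38, 95% interval -1.19 to 0.39). *Sln* was at -1.04 (SE 0.56, 95% interval -2.21 to 0.13, unadjusted p = 0.079 from edgeR), and at 0.06 without WT replicate 3.

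Between activated KO and WT cells no member was called in the fit of all 12 libraries either, but *Sln* stood apart from the rest in size. The study, which used DESeq2, lists *Sln* as higher in activated KO cells, and also *S100a1* and *Cacng1* of the related genes below. The absence of a call here thus departs from the study's list. Both KO libraries, at 172 and 158 CPM, were far above both WT libraries, at 13.2 and 24.96 CPM, an 8.86-fold difference (95% interval 3.04 to 25.8). In edgeR's fit of all 12 libraries the log2 fold change was 3.15 with an SE of 0.74, the unadjusted p was 0.000395 and the adjusted p 0.137. The call depended on the fit: *Sln* was called in 5 of 11 other settings and in 0 of 4 fits that each left out 1 library. Over all of these its adjusted p ran from 3.15e-11 to 0.77 while its log2 fold change stayed between 2.63 and 3.56. In edgeR on the 4 activated libraries alone it was called at an adjusted p of 0.0302, where 0.0244% of genes were called, and in DESeq2 on the same libraries at 9.85e-11, where 0.28% were called. In DESeq2 on all 12 libraries its adjusted p was 0.171. The fit of all libraries called 0.0504% of genes.

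*Casq2* was the other member with an unadjusted p under 0.05. Its 34.2 and 60.9 CPM in activated KO libraries lay above the 13.7 and 25.8 CPM of the activated WT libraries, from 133 and 267 counts against 84 and 59. The log2 fold change was 1.30 (SE 0.57, unadjusted p = 0.0329, adjusted p = 0.55 in edgeR), it was called in 0 of 11 other settings, and it fell to 0.76 without activated KO replicate 2. The other 8 members lay between -0.33 for *Cacna1s* and 0.50 for *Jph1*, with unadjusted p-values of 0.15 or more and 95% intervals within -1.91 to 1.24. For *Sln* and *Casq2* the KO libraries were above, and for *Atp2a2* below, both WT libraries, and for the other 7 the genotypes overlapped. Of all genes tested, 24.7% did not overlap in this comparison of 2 libraries with 2, so the 3 of 10 members are near the background.

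**Figure D5:**
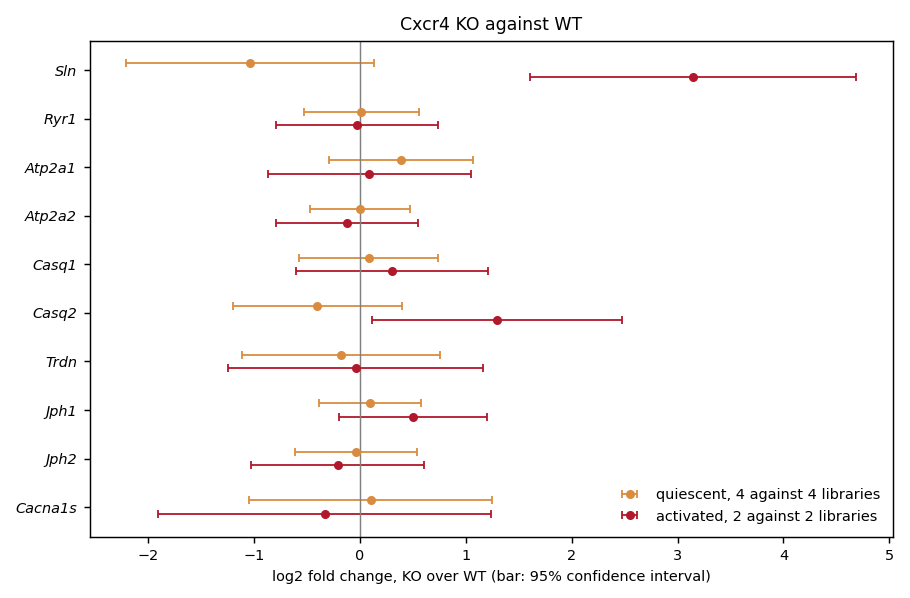
Log2 fold change of *Cxcr4* KO over WT for each gene in quiescent (orange) and activated (red) cells, with 95% confidence intervals from edgeR. All quiescent intervals include 0, and of the activated ones those of *Sln* and *Casq2* lie above 0 before adjustment for the number of genes.

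The difference between the KO effects in the 2 states was tested in the same fit. No gene of the 25771 was called, which is 0% of those tested, although 1699 had an unadjusted p under 0.05, and DESeq2 called 0 members. For *Sln* the difference was 4.19 on the log2 scale (SE 0.92, 95% interval 2.27 to 6.10, unadjusted p = 0.000201, adjusted p = 0.239 in edgeR), it was called in 2 of 8 other settings, and the adjusted p ran from 1.81e-12 to 0.782 over these and the 12 fits that each left out 1 library. In those 12 fits the difference lay between 3.09, without quiescent WT replicate 3, and 4.602, without activated WT replicate 2. For *Casq2* it was 1.70 (SE 0.68, unadjusted p = 0.0217, adjusted p = 0.675 in edgeR). The other 8 members had differences between -0.43 and 0.41 and unadjusted p-values of 0.329 or more.

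Marker lists were read beside the *Sln* value. Of the 13 fibre genes tested, 0 were called between activated KO and WT cells, their median log2 fold change was 0.19 and their summed levels overlapped. In the myoblast and early differentiation list the median was 1.89, and 1 of 8 was called. That gene was *Myh8*, perinatal myosin heavy chain, which also had the opposite sign in quiescent cells, at -1.27, and did not pass the test there. It was at 1.31 and 1.75 CPM in activated WT and 14.6 and 23.5 CPM in activated KO libraries (log2 fold change 3.69, adjusted p = 0.048 in edgeR). Its call was lost in edgeR on the activated libraries alone (adjusted p = 0.192) and without activated WT replicate 1 (0.565) or KO replicate 2 (0.327). In the other lists the single call was *Ngfr* of the Schwann cell list, at -3.21 (adjusted p = 0.048 in edgeR). The median log2 fold change was -1.21 over the 8 smooth muscle and pericyte genes, all below 0, and -1.18 over the 6 endothelial genes, and none of these was called. The smooth muscle and pericyte list summed to 387 and 231 CPM in activated WT and 170 and 264 CPM in activated KO libraries. The endothelial list summed to 658 CPM in activated WT replicate 1, above the 89.8 CPM of WT replicate 2 and the 95.5 and 301 CPM of the KO libraries. The medians of the other lists were 0.51 for fibroadipogenic progenitors, -0.08 for hematopoietic and 0.63 for Schwann cells. The part of these transcripts in the *Sln* value was not tested.

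A further 52 genes of calcium handling in the table of raw counts, in 10 lists by role, were set beside the members. Of these, 50 had enough counts for a test. Between quiescent KO and WT cells none of the 50 was called. Between activated KO and WT cells 1 was called. This was *S100a1*, a calcium-binding protein that acts on the ryanodine receptor, at 3.76 and 6.13 CPM in WT and 18.8 and 33.1 CPM in KO libraries, from 23 and 14 against 73 and 145 counts. Its log2 fold change was 2.45 (SE 0.44, adjusted p = 0.0482 in edgeR). The adjusted p was 0.331 in edgeR and 0.0763 in DESeq2 on the activated libraries alone, 0.663 without activated WT replicate 1 and 0.401 without activated KO replicate 2.

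In the other roles the gene with the lowest p in this comparison did not pass. *Cacng1*, the gamma subunit of the skeletal dihydropyridine receptor, was at 20.9 and 34.6 CPM in WT and 80.9 and 105 CPM in KO libraries (log2 fold change 1.77, adjusted p = 0.297 in edgeR, and 0.0219 in DESeq2 on the activated libraries alone). *Mtm1*, the lipid phosphatase myotubularin, was at 2.61 and 2.19 CPM in WT and 7.96 and 14.8 CPM in KO libraries (2.22, adjusted p = 0.201 in edgeR). The log2 fold changes were 1.26 for *Sypl2*, which encodes the triad protein mitsugumin 29, 1.21 for the counterion channel *Tmem38b* and 1.16 for the SERCA inhibitor *Mrln*. They were -0.94 for the IP3 receptor *Itpr1*, -1.04 for the plasma membrane pump *Atp2b4*, -1.37 for the cation channel *Trpc1* and 0.03 for the cytosolic calcium buffer *Pvalb*. Leaving out 1 library moved several of these uncalled values: without activated WT replicate 1 they were 0.74 for *Sypl2*, 0.72 for *Tmem38b*, -0.30 for *Atp2b4* and -0.64 for *Trpc1*. *Trpc1* was at -2.57 without activated KO replicate 1 and at -0.75 without KO replicate 2, and *Atp2b4* at -1.58 without activated WT replicate 2. The value of *Mrln* rests on 3 and 1 counts in activated WT and 1 and 8 counts in activated KO libraries. It lay between -0.91 and 1.92 when 1 library was left out. The unadjusted p-values of these genes in edgeR's fit of all libraries ran from 0.00102 for *Mtm1* to 0.959 for *Pvalb*.

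On activation 13 of these 50 genes were called higher and 14 lower in WT, and 17 higher and 13 lower in KO cells, with medians of -0.17 and 0.16. Of all genes tested, 9.65% were called higher and 16.5% lower in WT, and 11.1% higher and 18.5% lower in KO cells. The roles differed, but each holds few genes. Of the luminal and junctional proteins 3 of 7 rose in WT, namely *Hrc*, *Srl* and *Sypl2*, and none fell, and *Hrc*, which binds calcium inside the store, went from between 6.02 and 18.0 CPM to 123 and 286 CPM (log2 fold change 4.13, adjusted p = 4.58e-07 in edgeR). Of the dihydropyridine receptor subunits and adaptor 3 of 5 rose, namely *Cacng1*, *Stac3* and *Cacna2d1*, and none fell, and *Cacng1* had a log2 fold change of 3.14. *Tmem38a*, the counterion channel of skeletal muscle, rose by 3.16, and *Pvalb*, the soluble buffer of fast fibres, rose by 5.71. Without activated WT replicate 2 the changes were 3.47 for *Hrc*, 2.54 for *Tmem38a* and 4.89 for *Pvalb*, and without activated WT replicate 1 that of *Pvalb* was 6.34. Among the 6 genes of store-operated entry the plasma membrane channel *Orai2* rose by 2.48 and *Trpc1* fell by 2.35. Of the 8 genes of triad and T-tubule structure *Bin1* and *Cav3* rose and *Jph4*, *Dysf* and *Speg* fell.

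The release channels other than *Ryr1* went the other way, with 0 of 5 called higher, 3 lower in WT (*Ryr2*, *Ryr3* and *Itpr2*) and 5 lower in KO. *Ryr2*, the cardiac ryanodine receptor, was at 10.0, 12.9, 6.84 and 2.697 CPM in quiescent WT and had 0 counts in both activated WT libraries. Against a limit of 3 counts over that group it was at least 21.4-fold lower. Of the 6 other pumps and exchangers the sodium-calcium exchanger *Slc8a3* rose and *Atp2a3*, *Slc8a1* and *Atp2b4* fell, and *Atp2b4*, a plasma membrane calcium pump, went from between 226 and 284 CPM to 24.8 and 10.1 CPM (log2 fold change -3.76, adjusted p = 8.37e-07 in edgeR), or -4.53 without activated WT replicate 1. Of the 6 release channel regulators *Fkbp1a* rose and *S100a1* and *Homer1* fell in WT cells. *Homer1*, a scaffold protein that binds ryanodine and IP3 receptors, changed by -2.92, and *Mrln*, an inhibitor of SERCA, by -3.25, from counts that gave 0.49 and 0.44 CPM in activated WT libraries. Of the 4 other SERCA regulators tested, *Mrln* and *1810037I17Rik* fell and none rose, whereas *Sln* rose. The *Mrln* call was lost without either activated WT library (adjusted p = 0.115 and 0.061 in edgeR). *Jph4*, a junctophilin of neurons, changed by -3.81 and rests on low counts, with 0.49 and 0 CPM in activated WT libraries. Its change was -3.22 without activated WT replicate 2, and without replicate 1 the fitted value of -9.19 rests on 0 counts and is no bound.

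The genes whose log2 CPM followed the members most closely over the 12 libraries were found in a pool of 14005 genes whose average log2 CPM exceeded 1. The libraries form separate groups by state, so these values of Pearson's r are descriptions that mostly carry the difference between states. For *Sln* they were *Myf6* (r = 0.9771), *Cacng1* (0.9621) and *Aqp4* (0.9619), and for *Atp2a1* they were *Mylpf* (0.9972), *Myoz1* (0.9971) and *Tnni2* (0.9956). For *Ryr1* they were *Pfn2* (0.9869), *Myl1* (0.9815) and the processed pseudogene *Rpl19-ps11* (0.9789). For *Atp2a2* they were *Acsl4* (0.95), *Foxp4* (0.9499) and *Dusp10* (0.9498).

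Some member counts may hold reads of other genes. Exons of *Atp2a1* share 494 bases with *Rabep2* on the opposite strand, those of *Ryr1* share 636 with the antisense gene *Gm26604* and those of *Cacna1s* share 1309 with *Gm37759*. Shorter overlaps exist for *Casq1* with *Gm17224*, for *Jph1* with *Gm28376* and for *Atp2a2* with *Gm43361*, and whether counting used strand is not given in the sources used here. *Atp2a2* also shares 362 bases at 99.2% identity with *Gm30970*. No transcript of another gene matched *Sln*, *Casq2*, *Trdn*, *Jph1* or *Jph2* at 90% identity over 100 bases.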

How the data were processed

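RNA-seq counts of 12 libraries in 4 groups were analysed. The authors trimmed reads with Trim Galore 0.6.0, mapped them to GRCm38.p6 with STAR 2.7.2a, per the submitters' processing notes, and used Rsubread to count reads per GENCODE gene. The deposited values are counts, whole reads without normalization. The authors also deposited FPKM, 1 value per group of libraries, whose scaling is not given in the sources used here. How multi-mapped reads were treated is not given either.

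Here counts were filtered with filterByExpr, scaled by TMM and fitted with edgeR 4.0.16 in R 4.3.3, with 1 coefficient per group. Quasi-likelihood F tests were adjusted by the Benjamini-Hochberg method over all 25771 genes, and each SE was derived from the F statistic. DESeq2 1.42.0, other scalings, filters and sample sets, the replicate number as a block, and each library left out were the alternatives. Paralog ratios were compared by two-sided exact permutation tests. Exon lengths, positions and transcripts came from GENCODE mouse release 21 on GRCm38 and promoters from RefSeq, and transcripts were compared with blastn 2.17.0. The study's methods name a later GENCODE release for the counting, so the exons counted may differ from those measured here. The script was tested on simulated data. Depths are given with the results, and intervals of counts cover counting error only.

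The members, related genes and marker lists were chosen with earlier results of these data known. All members were named, and of the related genes those called between genotypes and, for each role, the lowest p between activated genotypes and the largest change on activation in WT. For 4 members the 3 most alike genes were named. Genes named beyond this, to spell out small counts, were chosen after their values were seen. Lists of satellite cell, myoblast, fibre, smooth muscle and pericyte, endothelial, fibroadipogenic, hematopoietic and Schwann cell genes and genes that mark sex were read as counts of calls.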

Additional observations from a re-analysis of the deposited data

Results flagged for a closer look

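In groups of 4 libraries, 4 values lay apart from the rest of their group by Dixon's test, out of 26 groups examined. The test flags about 1 in 20 groups of independent, normally distributed values. These groups share libraries, so the 4 flags cannot be set against that rate. *Ryr1* was at 47.1 CPM in WT quiescent replicate 3, and *Atp2a2* at 700.4 CPM in WT quiescent replicate 4. *Trdn* at 7.24 CPM and *Cacna1s* at 5.74 CPM both stood apart in KO quiescent replicate 2, the library with the highest *Atp2a1* and *Casq1* of the quiescent ones and a fibre list sum of 1074 CPM. In the main fit, with the count filter and no replicate block, no difference between the KO effects in the 2 states passed the adjusted test. That of *Sln* was called in 2 of 8 other settings.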

How the results depend on the processing

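The counts of members called were 0 in quiescent KO against WT cells, 7 in WT and 9 in KO cells on activation, within 1.5 times in every setting run, with 7 to 8 and 7 to 9 when 1 library was left out. The count in activated KO against WT cells moved from 0 to 1, and the gene was *Sln*, with no filter on low counts, with edgeR or DESeq2 on the compared groups alone, and with the replicate block, whether all libraries or the compared groups entered. That of the difference between states moved from 0 to 1 (*Sln*) with no filter and with the replicate block on all libraries. The cause was not tested. Whether the replicate numbers pair the samples was not settled. In quiescent cells the correlations ran from -0.22 to 0.55 for same-numbered WT and KO libraries, and from -0.44 to 0.29 for the others. In activated cells they were -0.04 and 0.04, which mirror each other because each group has 2 libraries, so they cannot decide. With the replicate block on all libraries the log2 fold change of *Sln* in activated cells was 3.21 (adjusted p = 0.0241 in edgeR).

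In activated KO against WT the calls of *S100a1* and *Myh8* were also lost with DESeq2 size factors (adjusted p = 0.0515 each) and with a mean count filter (0.0540 each) in edgeR, and *Cacng1* was called with no filter (0.00302). Values that turned sign in other settings were uncalled in all of them. Without a filter *Atp2a2* in quiescent KO against WT was at 0.0154. With the replicate block, *Ryr1* was at 0.00529 and *Trdn* at 0.0896 (0.0341 on the compared groups) in activated KO against WT, and *Casq2* on activation in WT at -0.24. *Pvalb* in activated KO against WT was at -0.0629 with DESeq2 size factors, -0.0687 with DESeq2 on all libraries, -0.0460 with edgeR on the compared groups and -0.0662 with DESeq2 on them.

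Leaving out 1 library at a time gave these ranges of log2 fold change where the sign turned. In quiescent KO against WT they were -1.38 to 0.0551 for *Sln*, -0.0876 to 0.25 for *Ryr1*, -0.24 to 0.13 for *Atp2a2*, -0.24 to 0.29 for *Casq1*, -0.78 to 0.19 for *Trdn*, -0.22 to 0.18 for *Jph2* and -0.71 to 0.75 for *Cacna1s*. In activated KO against WT they were -0.49 to 0.37 for *Ryr1*, -0.43 to 0.59 for *Atp2a1*, -0.28 to 0.91 for *Casq1*, -0.68 to 0.73 for *Trdn*, -0.10 to 1.15 for *Jph1*, -0.79 to 0.21 for *Jph2*, -0.93 to 0.18 for *Cacna1s*, -0.91 to 1.92 for *Mrln* and -0.64 to 0.83 for *Pvalb*. On activation in WT they were -0.31 to 0.62 for *Casq2* and -0.0225 to 1.22 for *Jph1*. The quiescent difference in paralog ratio ran from -0.00558 to 0.83 for *Atp2a1* to *Atp2a2* and from -0.10 to 0.35 for *Jph1* to *Jph2*. The 3 paralog ratios kept their direction and their call on activation without any 1 library and with 5 added to each count.

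With 2 libraries per genotype and totals of 3172164 to 5427280 counts, differences between activated genotypes are known only within wide intervals. Where 1 activated library was left out, the lone one was assumed to vary like the other groups.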
